A study of Mus musculus with 8 samples.

Results

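The genes described here are the ligands and receptors of the fibroblast growth factor (FGF) and platelet-derived growth factor (PDGF) families. They were taken by gene symbol alone: every numbered Fgf gene, Fgfr1 to Fgfr4, Pdgfa to Pdgfd, Pdgfra, Pdgfrb and Pdgfrl, which gave 33 of the 24028 genes in the tables. Transcripts were counted in 8 tumours grown from TRAMP-C2, one mouse prostate adenocarcinoma line that came from the TRAMP transgenic mouse, whose oncogene is driven by the prostate-directed probasin promoter. All hosts were male immune-competent C57BL/6 mice that received 1000000 cells in the dorsolateral prostate, and tumours were collected between day 30 and day 45. 4 tumours came from aged hosts of 20 to 24 months (19 were injected) and 4 from young hosts of 4 months (20 were injected). Each tumour is called by its group and its mouse number. The comparison asks how host age bears on transcripts in tumours of the same line. Injected cells and host cells were measured together, so fewer cells of a type and less RNA per cell cannot be told apart here.

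Libraries held 27054498 (young 37) to 35729488 fragments (young 43), and levels are given as FPM, fragments per 1000000 counted. 3 fragments, the most that a count of 0 allows, came to 0.084 to 0.111 FPM. This limit covers counting error only. Tumours of the same group differed in transcripts of other tissues. The 7 seminal vesicle markers summed to 21249 FPM in aged 50 and 36946 FPM in young 36, against 0.554 to 17.1 FPM in the other 6 tumours. Svs2 and Svs5 were high in both aged 50 (17892 and 3077 FPM) and young 36 (8867 and 11697 FPM). Svs4 had 276 FPM in aged 50 and 11321 in young 36. Svs1, Svs3a, Svs3b and Svs6 had 0.0281 to 3.06 FPM in aged 50 and 957 to 1775 FPM in young 36. The 6 prostate secretory markers were highest in young 37 (7561 FPM) and aged 50 (6088 FPM). The 4 epithelial markers (Epcam, Cdh1, Krt8 and Krt18) had at least 10 fragments in every tumour and summed to 38.0 to 446 FPM. The 7 fibroblast markers, mostly Col1a1 and Col1a2, summed to 5804 FPM in aged 46, the lowest, and to at most 18428 FPM (young 40).

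FGF ligands are small secreted proteins, most of which act on nearby cells through the receptor tyrosine kinases FGFR1 to FGFR4, with heparan sulphate as a cofactor. A few travel as hormones that need a klotho co-receptor, and the fibroblast growth factor homologous factors (Fgf11 to Fgf14) stay inside the cell. In the prostate, stromal Fgf7 and Fgf10 are known to act on the epithelial form of Fgfr2. PDGF ligands are dimers. PDGF-A and PDGF-C bind mainly PDGFR-alpha, a receptor of fibroblasts. PDGF-B and PDGF-D bind PDGFR-beta, a receptor of pericytes and other mural cells. These pairings of ligand, receptor and cell type are not exclusive. PDGF-C and PDGF-D are released with an inhibitory domain that proteases must remove.

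By median FPKM over the tumours, a level per transcript length, Pdgfd and Fgf7 were the most abundant of the PDGF ligands and of the secreted FGF ligands, so a promoter window of each is shown. RefSeq (GRCm38.p6) windows of 300 bases, from 250 before to 50 after a transcript start, were at hand for 23 of the 33 genes. Capitals mark 3 motifs searched on both strands, the TATA box (TATAAA), the GC box (GGGCGG) and the CCAAT box (CCAAT), which do not overlap each other in these windows. The first line is chr9:6168236-6168535 and the second chr2:126034408-126034707, both on the plus strand.
Pdgfd: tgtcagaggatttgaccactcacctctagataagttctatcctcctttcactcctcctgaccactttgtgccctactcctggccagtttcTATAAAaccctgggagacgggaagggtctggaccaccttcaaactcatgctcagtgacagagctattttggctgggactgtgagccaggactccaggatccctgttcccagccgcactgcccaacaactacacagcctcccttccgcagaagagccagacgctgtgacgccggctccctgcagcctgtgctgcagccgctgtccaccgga
Fgf7: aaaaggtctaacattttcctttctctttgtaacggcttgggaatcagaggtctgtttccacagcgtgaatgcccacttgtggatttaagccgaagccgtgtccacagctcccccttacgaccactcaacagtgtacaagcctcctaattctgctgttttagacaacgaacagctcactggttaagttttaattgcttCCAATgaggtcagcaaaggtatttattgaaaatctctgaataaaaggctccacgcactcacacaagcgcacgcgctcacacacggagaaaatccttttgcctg
The Pdgfd window held 1 TATAAA, which began 160 bases before the start site used for the window and 37 bases before the first base of the gene's RefSeq record. It held neither of the other motifs. The Fgf7 window held 1 CCAAT, the match beginning 53 bases before the start site, and neither of the other motifs. Of 32851 windows of the same length, 13.6% held the TATA box letters, 35.7% the GC box letters and 37.4% the CCAAT box letters. These matches are a description of the letters only.

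Counting as present a gene with at least 10 fragments in at least 4 tumours, 19 of the 33 genes were present. These were all 4 PDGF ligands, both PDGF receptors, the receptor-like gene Pdgfrl, 3 of the 4 FGF receptors and 9 of the 22 FGF ligands. Of the 18 secreted FGF ligands 6 were present (Fgf1, Fgf2, Fgf7, Fgf10, Fgf18 and Fgf21), and the other present ones were the intracellular Fgf11, Fgf13 and Fgf14. Levels between genes are compared in FPKM, which is FPM per kilobase of transcript. By median FPKM the order began with Pdgfd (121 FPKM, range over the 8 tumours 41.0 to 211), Fgfr1 (46.1, 33.9 to 53.8), Pdgfrb (31.5, 14.0 to 48.9) and Pdgfc (21.6, 15.7 to 23.4). Pdgfrl (18.8 FPKM), Pdgfra (11.1), Pdgfa (9.61) and Pdgfb (6.40) followed. The medians of all these genes stood above that of the highest FGF ligand, Fgf7, with a median of 4.84 FPKM and a range of 0.798 to 15.1. Among neighbours in this order, only Fgf18 (0.537 FPKM) and Fgf14 (0.137 FPKM) had ranges that did not overlap. Pdgfd ranked 535 of 14575 tested genes by median FPKM.

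**Figure D1:**
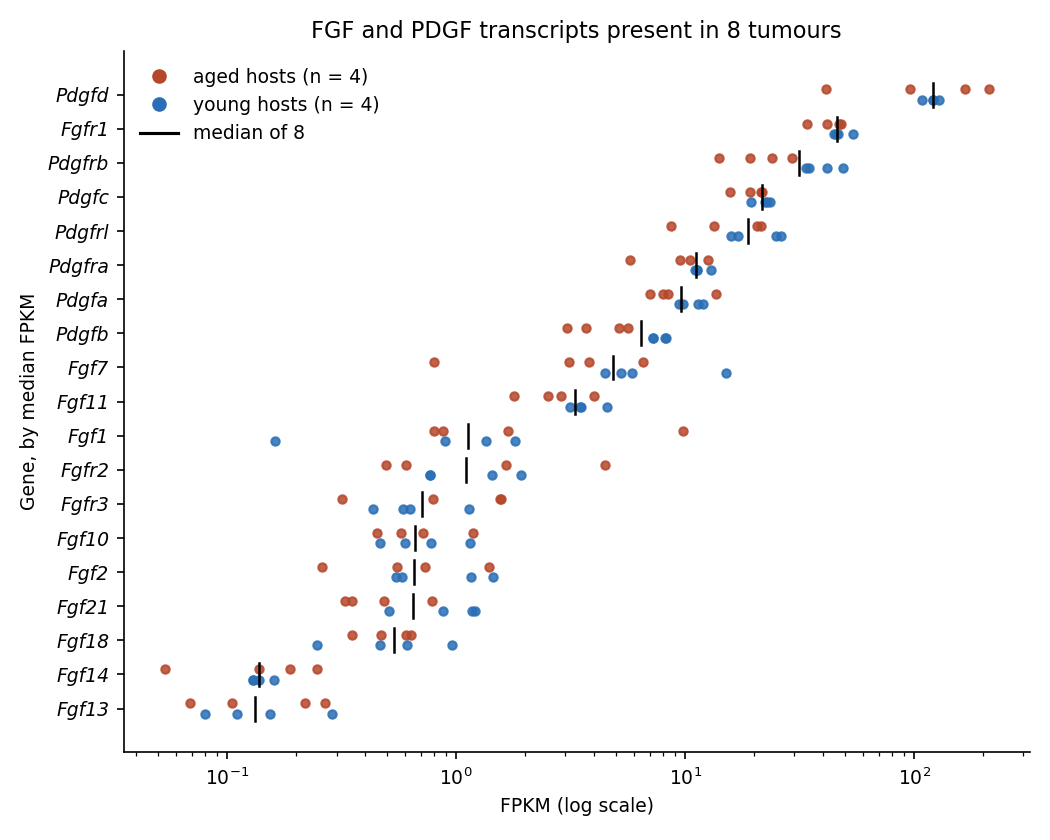
FPKM (log scale, horizontal) of the 19 present genes (vertical, ordered by median) in each tumour, with points coloured by host age and a bar at the median of 8. PDGF genes and Fgfr1 fill the top 8 places, and Fgf7 and Fgf11 are the only FGF ligands with a median above 3 FPKM.

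Most FGF ligands were scarcely counted. Fgf3, Fgf4, Fgf6 and Fgf15, the last a gut hormone, had 0 fragments in all 8 tumours. Fgf8, Fgf16, Fgf17, Fgf20 and Fgf22 had at most 4 fragments in any tumour, and Fgf5 had 1 to 6. The bone hormone gene Fgf23 had 0 to 9 fragments. Fgf9 reached 10 fragments in only 3 tumours, with 36 in aged 50 and 11 in both aged 47 and young 40. Fgf12 had 37 fragments in aged 50 and at most 6 elsewhere. Fgfr4, the receptor typical of liver and muscle, had 4 fragments in aged 50 and 0 in the other 7 tumours. Aged 50 had the highest FPM for 9 of the 29 genes with any fragment, the largest number for any tumour. Of these 9, Fgf16, Fgf20 and Fgfr4 had at most 4 fragments in any tumour. Among the 19 present genes aged 50 was highest for 3, against 6 for young 40 and 5 for young 43. Aged 50 was also high in seminal vesicle, prostate secretory (6088 FPM) and mural and smooth muscle markers (1184 FPM). The part of those cells in these counts was not tested.

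Among the PDGF ligands, Pdgfb was the one whose host groups did not overlap. Pdgfb (Entrez 18591, GRCm38 chromosome 15, 79995865 to 80024614) encodes the B chain that endothelial cells and platelets use to recruit pericytes. It stood at 14.3 FPM in aged 46, 21.7 in aged 47, 19.8 in aged 50 and 11.8 in aged 51, against 27.9 in young 36, 28.1 in young 37, 31.8 in young 40 and 31.5 in young 43. The highest aged tumour thus lay below the lowest young tumour, and the young tumours lay close together. Aged hosts averaged 16.9 ± 4.62 FPM and young hosts 29.8 ± 2.11 FPM (SD, n = 4 each). The log2 fold change, aged minus young, was -0.82 ± 0.17 (SE), or 1.76 times as high in young hosts. It did not pass edgeR's quasi-likelihood test over all 14575 genes (unadjusted p = 0.001, Benjamini-Hochberg adjusted p = 0.77). Without aged 50 and young 36, the tumours with seminal vesicle transcripts, the log2 fold change was -0.89 ± 0.22. Endothelial markers summed to 208 to 355 FPM in aged and 259 to 318 FPM in young tumours, and platelet markers to 32.8 to 109 and 28.9 to 55.5 FPM, with overlap in both. The 6 macrophage markers summed to 1200.3 to 2598 FPM in aged and 1829 to 2548 FPM in young tumours, also with overlap. A negative log2 fold change was found for 5 of 6 macrophage, 4 of 7 endothelial and 0 of 3 tested platelet markers, none past edgeR's threshold. Cd68 had 55.9 to 131 FPM in aged and 123 to 145 FPM in young tumours (log2 fold change -0.51). In the other direction, the macrophage marker Mrc1 had 0.25 and the endothelial marker Vwf 0.95. The part of these cells in the Pdgfb values was not tested.

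Its receptor gene Pdgfrb (18596, chromosome 18, 61045127 to 61085067) was also lower in every aged tumour than in any young one. The aged tumours stood at 75.9 (aged 46), 129 (aged 47), 159 (aged 50) and 104 FPM (aged 51). The young tumours stood at 189 (young 36), 183 (young 37), 225 (young 40) and 266 FPM (young 43). Aged 46 was the lowest and young 43 the highest of the 8. Means were 117 ± 35.7 and 216 ± 38.3 FPM (SD, n = 4 each), with a log2 fold change of -0.88 ± 0.20 and a ratio of 1.84 in favour of young hosts. By edgeR the unadjusted p was 0.0019 and the adjusted p 0.83, so this gene did not pass either. Without aged 50 and young 36 the log2 fold change was -1.08 ± 0.22.

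Pdgfra (18595, chromosome 5, 75151322 to 75198206), a receptor of fibroblasts and other mesenchymal cells, overlapped between groups. It had 51.5 FPM in aged 46, 94.4 in aged 47, 85.1 in aged 50 and 113 in aged 51, against 101, 98.4, 116 and 101 FPM in young 36, 37, 40 and 43. Aged 46 alone was far below the others, and the log2 fold change was -0.27 ± 0.21 (edgeR adjusted p = 0.92). Per length, Pdgfrb exceeded Pdgfra in all 8 tumours, by a ratio of 1.52 (aged 51) to 4.33 (young 43). Its mean was 2.33 ± 0.65 for aged hosts and 3.42 ± 0.61 for young hosts (SD, n = 4 each). The groups overlapped, since aged 50 (3.09) lay above young 36 and young 37. Pdgfrl, which encodes a secreted receptor-like protein, had 26.8 to 66.0 FPM in aged and 49.0 to 81.1 FPM in young tumours, with a log2 fold change of -0.40 ± 0.27.

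Markers of mural, smooth muscle and fibroblast cells, types known to carry these receptors, were read in the same libraries. Which cells, injected or host, carried the receptor transcripts or these markers was not tested. The 9 mural and smooth muscle markers summed to 182 FPM in aged 46, 294 in aged 51, 547 in aged 47 and 1184 in aged 50, and to 424 to 917 FPM in young tumours. The groups overlapped, and 5 of the 9 had a negative log2 fold change, none past the threshold by edgeR. The pericyte genes of that list differed in direction. Log2 fold changes were -1.17 for Cspg4, -0.49 for Notch3, -0.34 for Kcnj8, -0.23 for Abcc9 and 0.14 for Rgs5. Notch3 had 71.0 to 114 FPM in aged and 101 to 167 FPM in young tumours, and Cspg4 had 1.80 to 5.13 and 2.53 to 12 FPM. Among the smooth muscle genes the log2 fold change was -0.26 for Acta2, 0.28 for Myh11, 0.11 for Cnn1 and 0.25 for Des, and aged 50 was the highest tumour for each. Of the 7 fibroblast markers 6 had a negative log2 fold change, and Dcn had 0.11. The sum of all 7 was 5804 to 13767 FPM in aged and 10581 to 18428 FPM in young tumours. Most of it came from Col1a1 and Col1a2, with 2474 and 2984 FPM in aged 46 and 7641 and 9783 FPM in young 40. The sum thus says little about the other fibroblast markers. None of the 16 markers of both lists was at 0 in any tumour. The part of cell numbers in the Pdgfrb values was not tested.

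**Figure D2:**
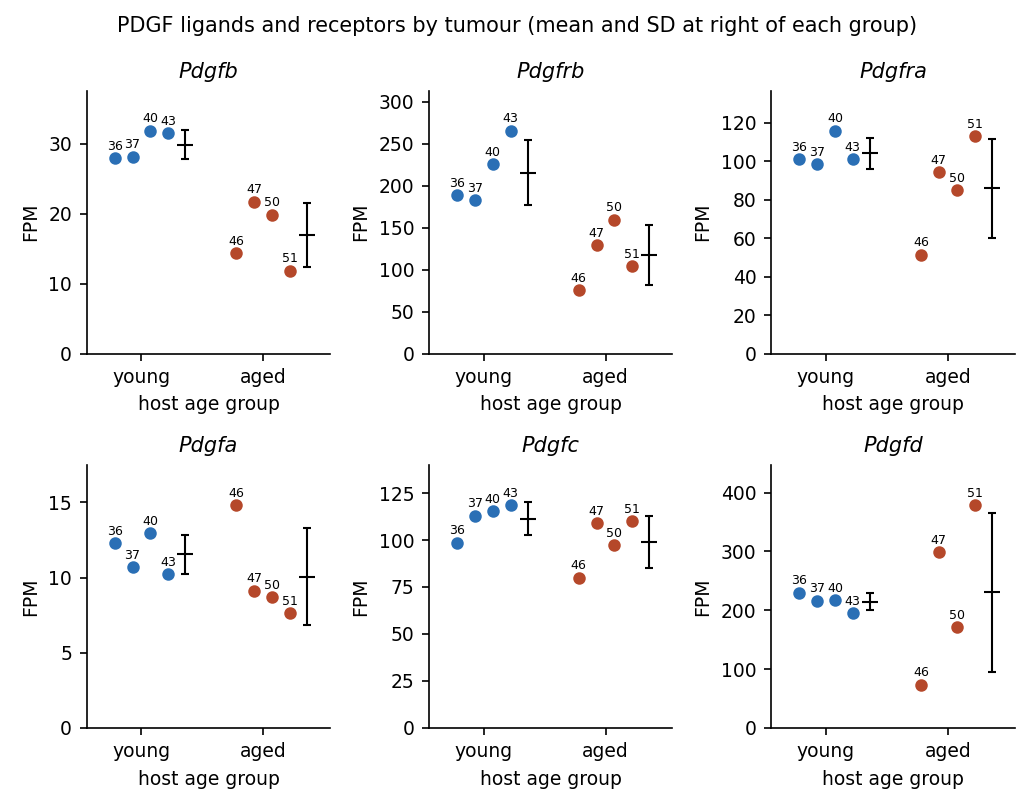
FPM (vertical, from 0) of 6 PDGF genes in each tumour by host age group, with the mouse number over each point and the mean and SD at the right of each group. Pdgfb and Pdgfrb show no overlap between groups, while Pdgfd is tight in young tumours (195 to 230 FPM) and wide in aged ones (73.6 to 379 FPM).

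The remaining PDGF ligands overlapped between host ages. Pdgfa, the chain that signals mainly through PDGFR-alpha, had 14.8 FPM in aged 46 and 7.61 to 9.12 FPM in the other aged tumours, against 10.2 to 13.0 FPM in young tumours. Aged 46, the lowest tumour for the PDGF receptors, was thus the highest for this ligand. Pdgfc had 79.9 FPM in aged 46, 97.3 to 110 FPM in the other aged tumours and 98.6 to 119 FPM in young tumours. Their log2 fold changes were -0.18 ± 0.24 for Pdgfa and -0.16 ± 0.12 for Pdgfc, neither past edgeR's threshold (adjusted p = 0.93 and 0.92). Exons of Pdgfa overlap those of 6330403L08Rik on the opposite strand, and exons of Pdgfc, Pdgfra, Fgfr1 to Fgfr3, Fgf10 and Fgf14 overlap those of other annotated transcripts in GENCODE vM21, so their counts may be shared with these. No such overlap was found for Pdgfb, Pdgfrb, Pdgfd, Fgf1 or Fgf7.

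Pdgfd supplied most of the PDGF ligand transcripts per length. It made up 72.6% to 77.2% of the summed FPKM of the 4 ligands in young tumours, and 55.4% (aged 46), 74.8% (aged 50), 82.4% (aged 47) and 86.9% (aged 51) in aged tumours. Pdgfb made up 1.26% to 5.43%. In FPM, Pdgfd stood at 73.6 in aged 46, 299 in aged 47, 172 in aged 50 and 379 in aged 51, and at 230, 216, 217 and 195 in young 36, 37, 40 and 43. The young tumours lay between the extremes of the aged ones. The means were 231 ± 135 and 215 ± 14.5 FPM (SD, n = 4 each), so the SD was larger in aged tumours while the means lay close together. The log2 fold change was 0.11 ± 0.41 (edgeR adjusted p = 0.98), and without aged 51 it became -0.28 ± 0.37.

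Pdgfd (71785, chromosome 9, 6168363 to 6534284) lies in the stretch of chromosome 9 that also holds Birc2 and Yap1. Its neighbours were chosen for this account after values were seen. In aged 46, Pdgfd stood at 0.34 times the median of the 6 tumours other than aged 46 and aged 51. The nearest tested genes on both sides were similarly low in aged 46: Casp1 at 0.293, Casp4 at 0.337 and Casp12 at 0.314 times on one side, and Dync2h1 at 0.273 and Dcun1d5 at 0.278 times on the other. Each of these 6 genes was lowest in aged 46. Further along, Tmem123 (1.98 times), Birc2 (1.90) and Yap1 (2.04) stood higher in aged 46, whereas Birc3, between Birc2 and Yap1, stood at 0.351 times. The matrix metalloproteinase genes between Dcun1d5 and Tmem123 ranged from 0.225 (Mmp1b) to 2.18 times (Mmp12). On the far side of Casp1, Gria4 stood at 0.400 times and Msantd4, beyond it, at 1.01 times. Gria4 was scarce and varied (0.370 to 2.43 FPM in the 6 tumours), so where the low stretch ends on that side is not settled.

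In aged 51 the pattern differed. Pdgfd stood at 1.75 times the same median, Casp12 at 1.69, Dync2h1 at 2.71 and Dcun1d5 at 1.84 times, and Tmem123, Birc2 and Yap1 at 1.95, 2.03 and 1.86 times. Casp1 stood at 0.579 times, the scarce Gria4 at 0.577 times and Msantd4 at 1.2 times. These ratios have no replicate error, as each rests on 1 tumour. DNA copy number was not analysed here. The values of Pdgfd by host age therefore include tumours in which its nearest neighbours on the chromosome stood on the same side of the other tumours, Casp1 in aged 51 excepted, and the cause was not tested.

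**Figure D3:**
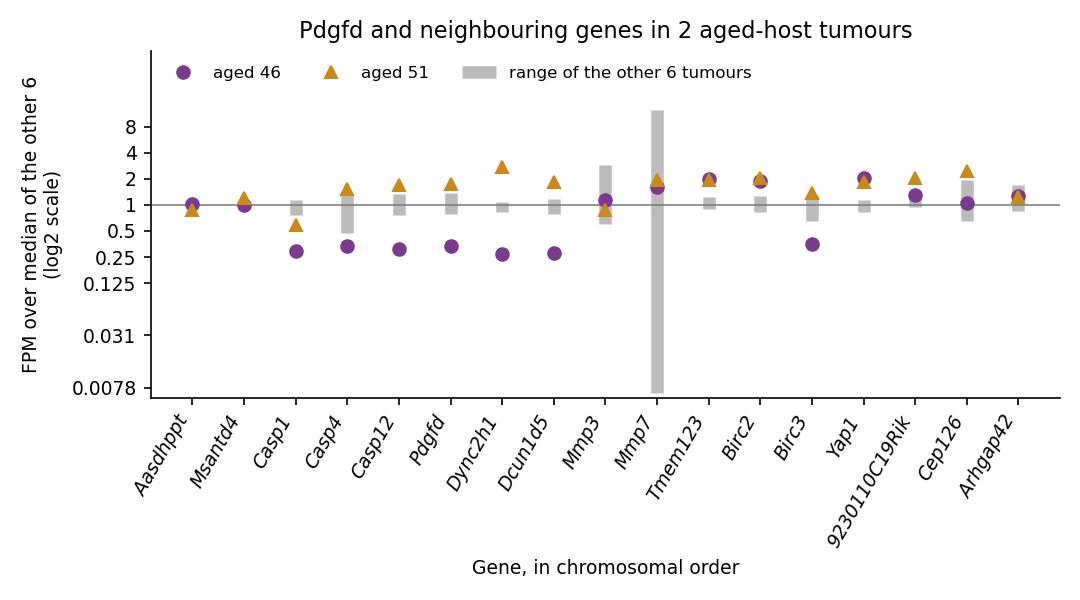
FPM in aged 46 and aged 51 over the median of the other 6 tumours (vertical, log2 scale) for Pdgfd and the 16 neighbouring genes with a median of at least 20 FPM, in chromosomal order; grey bars give the range of those 6 tumours. From Casp1 to Dcun1d5, Pdgfd included, aged 46 sits at 0.273 to 0.340 times the median, and at Tmem123, Birc2 and Yap1 it sits at 1.90 to 2.04 times.

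Among the secreted FGF ligands, Fgf7 had the highest median level per length, though not the highest level in every tumour. In aged 46 Fgf10 (1.19 FPKM) and Fgf1 (0.879 FPKM) exceeded it (0.798 FPKM), and in aged 50 Fgf1 did. Fgf7 (14178, chromosome 2, 126034658 to 126091185), the keratinocyte growth factor made by stromal cells, had 2.51 FPM in aged 46, 20.6 in aged 47, 12 in aged 50 and 9.76 in aged 51. Young 36, 37 and 40 had 16.4, 18.4 and 14.0 FPM, and young 43 had 47.5 FPM. Aged 46 was the lowest and young 43 by far the highest, and the groups overlapped because of aged 47. The log2 fold change was -1.12 ± 0.58 (edgeR adjusted p = 0.92), which became -0.56 without young 43 and -0.10 ± 0.40 by limma voom with sample weights. Fgf10, the other ligand of this kind, had 2.05 to 5.42 FPM in aged and 2.11 to 5.27 FPM in young tumours. Aged 46, lowest for Fgf7, was the highest for Fgf10.

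Fgf1 (14164, chromosome 18, 38838672 to 38929470), the acidic FGF that binds every FGF receptor, was set apart by 1 tumour. Aged 50 had 42.3 FPM, against 3.47 to 7.28 FPM in the other aged tumours and 0.700 (young 43) to 7.83 FPM (young 36) in young tumours. The log2 fold change of 1.59 ± 0.92 (edgeR adjusted p = 0.92) became 0.09 without aged 50. Per length, Fgf1 made up 57.0% of the secreted FGF ligand transcripts of aged 50, where Fgf7 made up 22.2%, and 0.856% in young 43, where Fgf7 made up 80.2%. Young 36, the other tumour with a high seminal vesicle marker sum, though made up of partly different genes, had 16.9% Fgf1 and 48.9% Fgf7. These shares are over the 18 secreted FGF genes.

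The other present FGF ligands were low. Fgf2, the basic FGF, had 0.232 to 1.28 FPM, and since its exons overlap those of Nudt6 on the opposite strand in GENCODE vM21 and the strand setting of the counting is not given, part of its count could belong to that gene. Fgf18, known from cartilage and bone, had 0.392 to 1.52 FPM. Fgf21, a metabolic hormone induced under stress, had 0.309 to 0.743 FPM in aged and 0.481 to 1.15 FPM in young tumours, a log2 fold change of -0.93 ± 0.45 (edgeR unadjusted p = 0.067, adjusted p = 0.92) on 10 to 41 fragments. The intracellular Fgf11 was the second most abundant FGF ligand gene with 4.69 to 10.4 FPM in aged and 8.21 to 11.9 FPM in young tumours. Its relatives Fgf13 and Fgf14, known from neurons, had 0.186 to 0.901 FPM.

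The FGF receptors were dominated by Fgfr1 (14182, chromosome 8, 25518759 to 25575718), the receptor typical of mesenchymal cells. It had 311, 269, 220 and 303 FPM in aged 46, 47, 50 and 51 and 302, 288, 296 and 349 FPM in young 36, 37, 40 and 43. The spread was narrow and the groups overlapped, with a log2 fold change of -0.14 ± 0.16 (edgeR adjusted p = 0.92). Per length, Fgfr1 made up 84.8% (aged 50) to 98.3% (aged 46) of the transcripts of the 4 receptors. Fgfr2, the epithelial partner of Fgf7 and Fgf10, had 26.5 FPM in aged 50, 2.94 to 9.80 FPM in the other aged tumours and 4.55 to 11.4 FPM in young tumours. Aged 50, highest for Fgfr2, was also the highest in the 4 epithelial markers (446 FPM), and aged 51 and young 43, the lowest in those markers (63.4 and 38.0 FPM), had 3.61 and 4.59 FPM of Fgfr2. The order was not the same throughout, since young 40, with 104 FPM of these markers, had 11.4 FPM and aged 46, with 113 FPM, had 2.94 FPM of Fgfr2. The part of epithelial cells in these values was not tested. The log2 fold change of Fgfr2 was 0.53 ± 0.65 and became -0.41 ± 0.49 without aged 50. Fgfr3 had 1.39 (aged 46), 6.85 (aged 47), 6.90 (aged 50) and 3.47 FPM (aged 51), against 1.91 to 5.03 FPM in young tumours, a log2 fold change of 0.60 ± 0.49. Splice forms of the receptors, which set ligand choice, are not resolved by counts per gene.

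**Figure D4:**
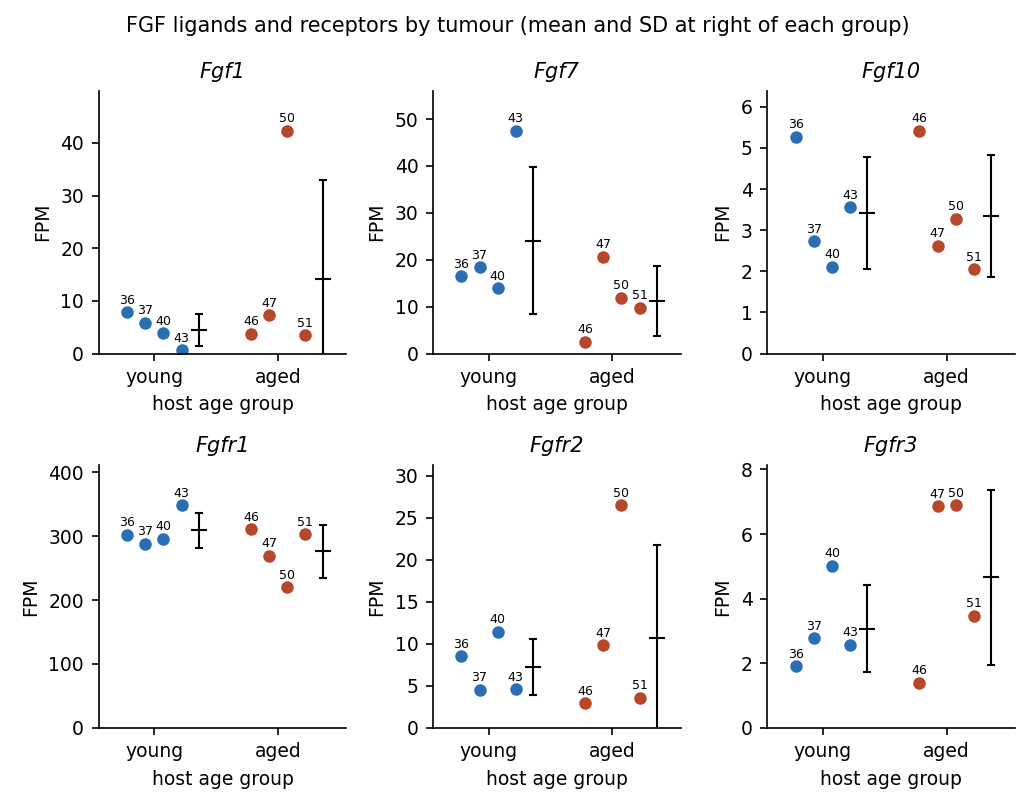
FPM (vertical, from 0) of 3 FGF ligands and 3 FGF receptors in each tumour by host age group, with the mouse number over each point and the mean and SD at the right (bars stop at 0). Aged 50 stands apart for Fgf1 (42.3 FPM) and Fgfr2 (26.5 FPM) and young 43 for Fgf7 (47.5 FPM), while Fgfr1 stays between 220 and 349 FPM.

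Across the 2 families, the filter on low counts left 19 of the 33 genes in the test, and 0 passed edgeR's quasi-likelihood test at an adjusted p of 0.05. Of all 14575 genes tested 0 passed (0%). At an unadjusted p of 0.05, 2 members were called, Pdgfb and Pdgfrb, both lower in aged hosts, where 2.66% of all genes tested were called in that direction. By DESeq2 both passed over all genes (Pdgfb -0.81 ± 0.19, adjusted p = 0.013, and Pdgfrb -0.87 ± 0.22, adjusted p = 0.024), where 0.178% of genes were called lower. By limma voom with sample weights neither passed (adjusted p = 0.13 and 0.11). Groups did not overlap, with aged hosts lower, for these 2 of the 19 members and for 1.95% of all genes tested. Of the 19 members, 13 had a negative log2 fold change, where 44.7% of all genes did. Their median was -0.16, beside 0.03 over all genes. The direction of 13 of the 19 was the same in all 16 settings tried, Pdgfb, Pdgfrb, Fgf7 and Fgf1 included. Fgf7 was nonetheless at -0.10 by limma voom, and Fgf1 at 0.09 without aged 50. The settings reuse the same tumours, so an unchanged direction is not separate evidence, and its share over all genes was not taken.

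**Figure D5:**
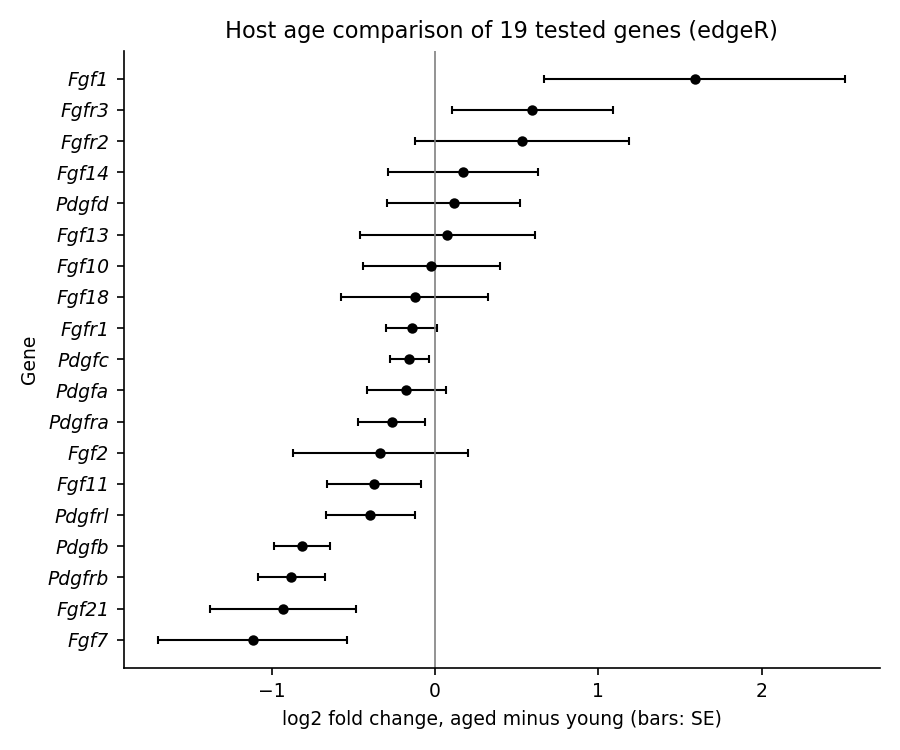
Log2 fold change, aged minus young hosts (horizontal; points are edgeR estimates and bars SE), of the 19 tested genes (vertical). Pdgfb (-0.82) and Pdgfrb (-0.88) have the smallest SE (0.17 and 0.20) among the genes below -0.5, while Fgf1 (1.59) and Fgf7 (-1.12) carry SE of 0.92 and 0.58.

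Other genes of both pathways were read from 4 lists. In none did a gene pass edgeR's test over all genes in either direction, and each list held 1 gene with an unadjusted p under 0.05, lower in aged hosts, where 2.66% of all genes tested were called in that direction. Among 16 feedback inhibitors and target genes of these receptors, 15 were tested, 9 with lower and 6 with higher values in aged hosts (median log2 fold change -0.17, against 0.03 over all genes). Spry1, a Sprouty inhibitor that receptor signalling induces, had 17.6, 46.6, 53.3 and 38.5 FPM in aged 46, 47, 50 and 51 and 58.6, 67.1, 70.6 and 96.8 FPM in young 36, 37, 40 and 43. The groups did not overlap, with aged hosts lower, as for 1.95% of all genes tested. Aged 46 was lowest and young 43 highest, the same tumours as for Pdgfrb. These extremes were common, since among the 19 present members aged 46 was lowest for 10 and young 43 highest for 5. The log2 fold change of Spry1 was -0.91 ± 0.29 (edgeR unadjusted p = 0.012, adjusted p = 0.92, and DESeq2 adjusted p = 0.26). Spry4, of the same family, had -0.39 ± 0.23 and overlapped.

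Of 11 co-receptors, binding proteins and adaptors of FGF signalling, 8 were tested, 4 in each direction (median 0.06). The klotho co-receptor genes Kl and Klb, which hormone-like FGFs need, and Flrt1 did not pass the filter. Flrt2, a membrane protein that binds FGF receptors, had 61.7 to 79.9 FPM in aged and 96.0 to 121 FPM in young tumours, a log2 fold change of -0.59 ± 0.11 (edgeR adjusted p = 0.74, DESeq2 adjusted p = 0.00071). The adaptor gene Frs3 had 0.34 ± 0.24. All 22 heparan sulphate proteoglycan and enzyme genes were tested, 13 lower and 9 higher (median -0.05). The syndecan gene Sdc2 had 94.3 to 129 FPM in aged and 135 to 179 FPM in young tumours (-0.40 ± 0.14, edgeR adjusted p = 0.92), and the heparan sulphate polymerase gene Ext1 had -0.24 ± 0.11. Of 7 PDGF proteases and binding proteins, 5 were lower and 2 higher (median -0.18). Nrp1, a co-receptor that binds PDGF as well as vascular growth factors, had 93.6 to 137 FPM in aged and 156 to 240.3 FPM in young tumours (-0.68 ± 0.16, edgeR adjusted p = 0.83, DESeq2 adjusted p = 0.031). Flrt2 and Nrp1 were the listed genes that DESeq2 called, both lower in aged hosts, where it called 0.178% of all genes. The endocytic receptor gene Lrp1, a partner of PDGFR-beta, had -0.36 ± 0.24.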

How the data were processed

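Per the file headers, the authors deposited for each tumour a fragment count, FPM and FPKM for each Entrez gene. The authors' FPM values are CPM (count over library total), and the authors' FPKM values are FPM per kilobase of the deposited transcript length. Tools recorded in the submitters' processing notes are TopHat2 2.0.12, Picard 2.7.1 and bcl2fastq, with the GRCm38 build. How fragments were assigned to genes, and whether by strand, is not given in the sources used here. 27 symbols that had become dates were restored by Entrez number from RefSeq, from which all coordinates come.

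Counts were tested with edgeR 4.0.16 (filterByExpr, minimum count 10, minimum total 15; TMM; robust quasi-likelihood) in R 4.3.3, with host age as the only term and Benjamini-Hochberg adjustment over all genes. SE is the fold change over the root of F. DESeq2 1.42.0, limma 3.58.1, other scalings, no filter and left-out tumours were alternatives. No library was a copy of another (lowest chi-square per degree of freedom 42.6 over 28 pairs). The labels give each tumour its own mouse, and no batch. All members were named; of each pathway list, the 2 genes with the smallest edgeR p were named. The members and lists were chosen with earlier results of these data known. Besides the marker sums in the text, T cell, skeletal muscle, neuron and adipocyte markers summed to 11.8 to 69.9, 9.29 to 134, 23.9 to 68.8 and 30.0 to 419 FPM. 1 further marker gene of the epithelial list is not reported here.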

Additional observations from a re-analysis of the deposited data

Results flagged for a closer look

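In 3 of 38 groups of 4 tumours (19 present genes in 2 host ages), 1 tumour stood far from the others by Dixon's criterion, which by chance alone marks about 1 group in 20. Fgf1 was at 42.3 FPM in aged 50, against 3.47 to 7.28 FPM in the other aged tumours. Fgf7 was at 47.5 FPM in young 43, against 14.0 to 18.4 FPM in the other young tumours. Pdgfra was at 116 FPM in young 40, against 98.4 to 101 FPM in the other young tumours, a small gap within a narrow group.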

How the results depend on the processing

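Over all genes 0 were called by edgeR, with 728 at an unadjusted p under 0.05, while DESeq2 called 43 and limma voom 9. Of the FGF and PDGF genes DESeq2 called 2 (Pdgfb and Pdgfrb), and of the listed pathway genes 2 (Flrt2 and Nrp1). Leaving out any tumour left the edgeR counts at 0. Pdgfb ranged from -0.94 to -0.56 and Pdgfrb from -1.08 to -0.70 over 16 settings (adjusted p 0.013 to 1 and 0.024 to 1). Requiring 1 FPM in at least 4 tumours left 4 of 9 FGF ligands. Directions turned in 17 cases, all by leaving out tumours and none by scaling or filter. Without aged 50 and young 36 Fgf10 had 0.33, Fgf13 -0.36 and Fgfr2 -0.30. Leaving out 1 tumour gave -0.40 to 0.30 for Fgf10, -0.24 to 0.50 for Fgf13, -0.18 to 0.44 for Fgf14, -0.38 to 0.22 for Fgf18, -0.41 to 0.83 for Fgfr2 and -0.28 to 0.40 for Pdgfd. The cause was not tested. No paired analysis was possible because the host groups share no mouse number.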
